A study of Homo sapiens with 12 samples.

Results

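The genes of the unfolded protein response and the integrated stress response were followed in T47D cells, an established line of luminal breast cancer with progesterone and estrogen receptors. They are 37 genes of known function in these responses, chosen with earlier results of these data in view, among 55765 genes in the count tables. All 37 passed the filter on low counts, which kept 17727 genes in all. They fall into 14 endoplasmic reticulum (ER) chaperones and folding enzymes, 4 genes of ER-associated degradation, 4 genes of ER stress sensing, 4 transcription factors of the integrated stress response, 2 phosphatase subunits and 9 targets of the factor ATF4. The study depleted PRMT1, an enzyme that methylates arginines, to ask about its part in the response of genes to progestin. Its RNA-seq libraries form 4 groups of 3 biological replicates, as stated in the labels. The groups are siPRMT1 with R5020, siPRMT1 with ethanol, siCT with R5020 and siCT with ethanol. siPRMT1 is an siRNA against PRMT1, and siCT is a nonspecific control siRNA. R5020 is a synthetic progestin, given at 10 nM for 6 h, and ethanol is its vehicle, with 6 h given as its time too, although the titles of the ethanol samples read T0. All groups share the cell line, growth in medium with serum and insulin, an siRNA and the solvent. Depletion by siRNA is partial and transient, and the labels do not give its duration.

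The unfolded protein response begins at 3 sensors in the ER membrane, encoded by ERN1, ATF6 and EIF2AK3. ERN1 (IRE1) splices the mRNA of XBP1, ATF6 is cleaved to a transcription factor, and both routes raise chaperones and degradation genes through ER stress response elements in promoters. EIF2AK3 (PERK) phosphorylates eIF2alpha, which lowers protein synthesis in general and favours translation of ATF4. ATF4 then raises genes of amino acid supply and tRNA charging, and other eIF2alpha kinases reach the same branch without ER stress. Secretory epithelia such as breast rely on this system to match folding capacity to protein output. Gene counts show mRNA amounts only and carry no information on XBP1 splicing, ATF6 cleavage or ATF4 translation.

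The promoters differ between the branches in the motifs they hold. Promoter sequences run from 250 bases before to 50 bases after each annotated start and come from RefSeq on GRCh38.p14, while hg19 is the build named for the counts. They were found for 35 of the 37 genes. The ER stress response element was searched as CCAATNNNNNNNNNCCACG and its second form as ATTGG and CCACG with 1 base N between them, on both strands, and the printed windows carry the match in capitals. The first form lay in 27 of 35116 promoters (0.0769%, or 0.0916% of gene symbols), and among the 37 genes in CALR, CANX, CRELD2, HSP90B1, HSPA5, PDIA6 and XBP1. The second form lay in 19 promoters (0.0541%, or 0.0696% of gene symbols), and here in HERPUD1, HYOU1 and SDF2L1. Either form was thus found in 8 of 13 chaperone genes with a promoter and in 0 of 8 ATF4 target genes. An ATF4 element, searched as TGATGNAA on both strands, lay in 3.62% of promoters (4.46% of gene symbols) and here in ASNS, CEBPG, CHAC1, HERPUD1 and PPP1R15B. These include 2 of 8 ATF4 target genes and 0 of 13 chaperone genes. TRIB3 held none of the 3 motifs in this window. HSPA5 is shown for its whole upstream 250 bases because it is the standard reporter gene of the response, at chr9:125241344-125241593 on the minus strand.
HSPA5: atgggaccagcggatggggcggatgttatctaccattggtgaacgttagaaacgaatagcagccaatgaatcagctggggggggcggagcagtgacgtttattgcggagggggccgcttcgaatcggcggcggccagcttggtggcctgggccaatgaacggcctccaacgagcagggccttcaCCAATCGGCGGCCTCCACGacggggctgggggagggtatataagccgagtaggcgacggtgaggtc
For other genes only the motif and its flanks are shown. HSP90B1 (chr12:103930194-103930256, plus strand), CALR (chr19:12938362-12938424, plus strand, with the motif reversed) and XBP1 (chr22:28800581-28800643, minus strand) carry the first form.
HSP90B1: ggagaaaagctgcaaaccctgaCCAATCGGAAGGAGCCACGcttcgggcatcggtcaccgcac
CALR: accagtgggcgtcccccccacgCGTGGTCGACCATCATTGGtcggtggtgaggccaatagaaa
XBP1: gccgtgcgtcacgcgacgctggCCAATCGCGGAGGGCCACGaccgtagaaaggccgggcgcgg
HYOU1 (chr11:119057358-119057412, minus strand, with the motif reversed) and HERPUD1 (chr16:56932003-56932057, plus strand) carry the second form, whose spacer is a lone base.
HYOU1: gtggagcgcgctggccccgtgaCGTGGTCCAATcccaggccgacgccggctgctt
HERPUD1: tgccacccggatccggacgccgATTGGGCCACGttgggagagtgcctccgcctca
ASNS (chr7:97872447-97872498, minus strand), CHAC1 (chr15:40953240-40953291, plus strand, with the motif reversed) and CEBPG (chr19:33374049-33374100, plus strand) show the ATF4 element.
ASNS: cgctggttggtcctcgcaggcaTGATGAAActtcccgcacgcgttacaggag
CHAC1: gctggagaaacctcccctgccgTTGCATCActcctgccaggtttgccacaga
CEBPG: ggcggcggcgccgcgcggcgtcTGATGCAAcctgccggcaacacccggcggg
HSP90B1, CALR, XBP1 and HYOU1 were added to this set after their values had been seen. A match is a description of these letters and not evidence of binding.

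Total counts ranged from 26783525 to 34120937 per library. PRMT1 averaged 7.08 ± 0.258 CPM (counts relative to a fixed total per library, scaled with the TMM method) in siPRMT1 R5020 and 8.23 ± 0.268 in siPRMT1 ethanol, against 43.0 ± 6.89 in siCT R5020 and 37.5 ± 7.83 in siCT ethanol (SD, n = 3), with no overlap between siPRMT1 and siCT libraries. Its log2 change with siPRMT1 was -2.60 ± 0.18 in R5020 and -2.19 ± 0.17 in ethanol. A pair of siCT libraries stood apart. Mitochondrially encoded (MT-) genes took 52.4% of counts in siCT R5020 replicate 1 and 59.3% in siCT ethanol replicate 3, against 31.3% to 38.3% in the other 10 libraries, and the nuclear RNA MALAT1 was at 948 and 1519 CPM against 250.7 to 486 CPM. The spread between replicates, as edgeR's biological coefficient of variation, was 0.0753 in siPRMT1 R5020 and 0.0464 in siPRMT1 ethanol, against 0.212 in siCT R5020 and 0.325 in siCT ethanol. All 8 luminal marker genes checked were expressed. Marker sums were scaled by library totals without TMM, so MT- counts lower them, most of all in the pair. The luminal sums were 10140 to 11530 CPM in siPRMT1 R5020 and 16120 to 16670 in siPRMT1 ethanol, against 3933 to 7330 in siCT R5020 and 3798 to 11000 in siCT ethanol. On the same scale the 14 markers of other cell types summed to 40.6 to 51.0 CPM with siPRMT1 and 72.2 to 113 CPM with siCT, most of it ACTA2 and COL1A1. The part of these differences in the results below was not tested.

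The gap between ER chaperones and ATF4 targets was wider in the pair than in the other 10 libraries, over which it changed little. For each library the mean log2 CPM of the 14 chaperone genes minus that of the 9 ATF4 targets was 1.50, 1.62 and 1.63 in siPRMT1 R5020 and 1.60, 1.58 and 1.67 in siPRMT1 ethanol, against 2.71, 1.51 and 1.59 in siCT R5020 and 1.48, 1.81 and 3.19 in siCT ethanol (replicates 1 to 3 in each group here and below). The 10 libraries outside the pair stayed between 1.48 and 1.81, and the pair lay above all of them. The group averages were 1.58 ± 0.08 in siPRMT1 R5020 and 1.62 ± 0.04 in siPRMT1 ethanol, against 1.94 ± 0.67 in siCT R5020 and 2.16 ± 0.91 in siCT ethanol (SD, n = 3). Without the pair the siCT averages were 1.55 and 1.64, so the groups then lay within the spread of the remaining libraries. In bulk RNA, fewer cells with a given state and less RNA per cell cannot be told apart.

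**Figure D1:**
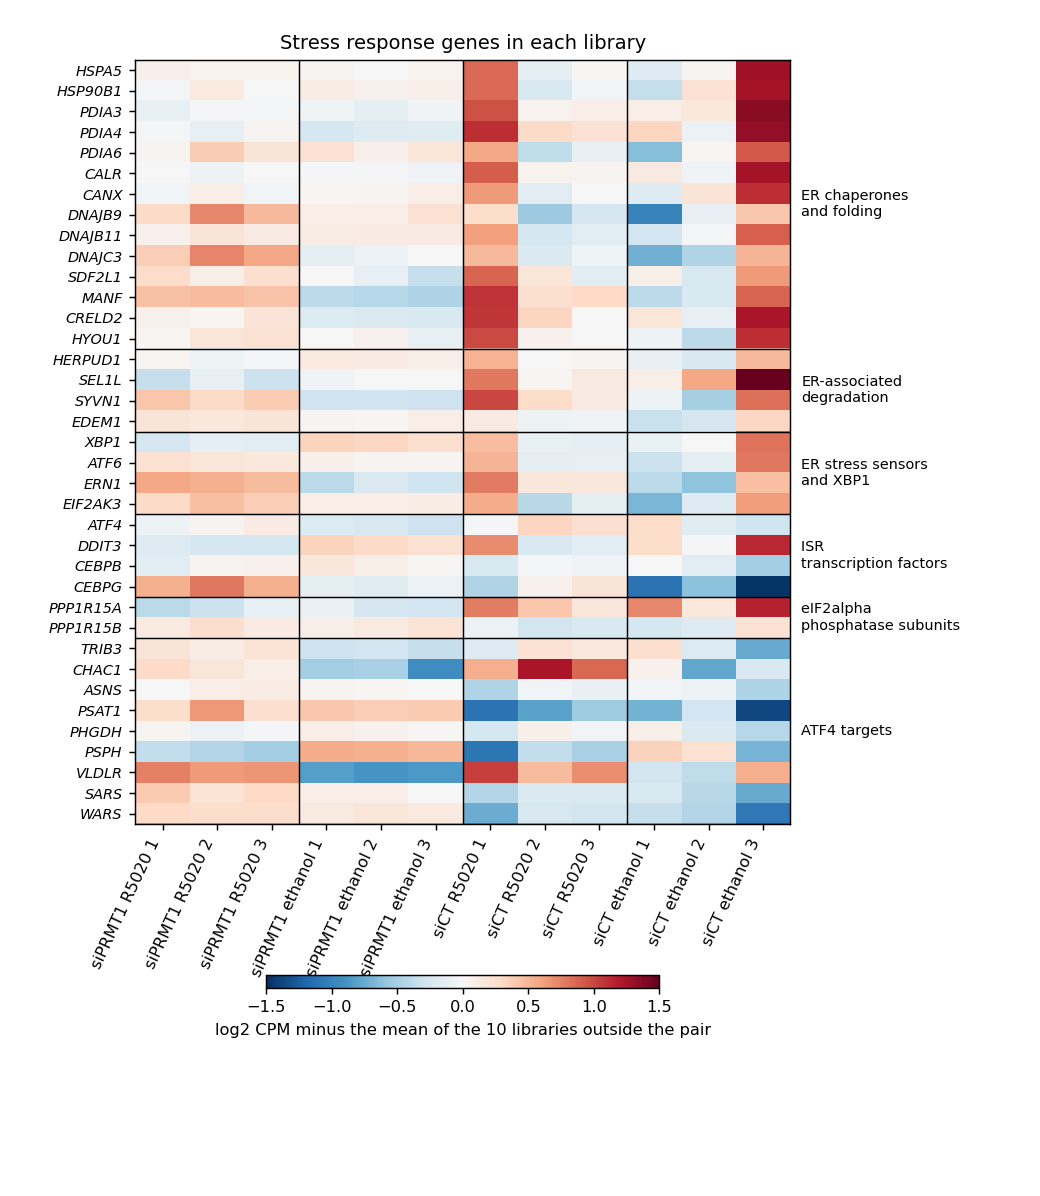
Level of the 37 genes (rows, by role) in the 12 libraries (columns, by group and replicate), as log2 CPM minus the mean of the 10 libraries outside the pair. Red is above and blue below that mean; siCT R5020 1 and siCT ethanol 3 are red over the chaperone, degradation and sensor rows and mostly blue over the ATF4 targets, with VLDLR as an exception.

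**Figure D2:**
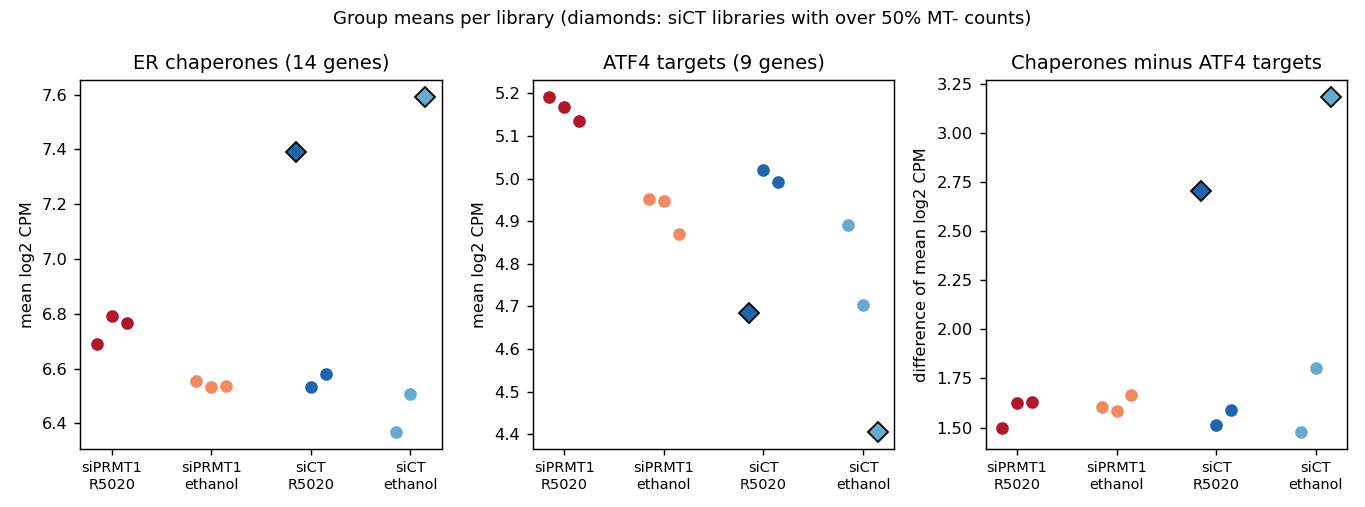
Mean log2 CPM of the 14 ER chaperone genes (left), of the 9 ATF4 targets (middle) and the difference of the 2 means (right), one point per library. The differences stand between 1.48 and 1.81 in 10 libraries and at 2.71 and 3.19 in the pair with over 50% MT- counts (diamonds); the vertical axes do not start at 0.

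The shift of the pair was then measured gene by gene, as log2 CPM in each library of the pair minus the mean of the other 2 libraries of its group. All 14 chaperones were higher in both libraries of the pair, with a median shift of 0.86 in siCT R5020 replicate 1 (range 0.63 to 0.98) and 1.20 in siCT ethanol replicate 3 (0.71 to 1.35). Over all 17727 genes the medians were -0.04 and -0.03, with the middle 50% of genes from -0.39 to 0.46 and from -0.54 to 0.63. ATF4 targets went the other way, with medians of -0.39 and -0.43, and 8 of 9 were lower in siCT R5020 replicate 1 and 7 of 9 in siCT ethanol replicate 3. These are shifts of lone libraries, without a replicate check, and no test was made of them. Of the 14 chaperones 12 were higher in each library of the pair than in all 10 others, siPRMT1 libraries included. Of the 9 ATF4 targets 6 were lower in siCT R5020 replicate 1 and 7 were lower in siCT ethanol replicate 3 than in all 10 others. The share of all genes that lay beyond the other 10 libraries was not counted, so these counts have no background beside them. The ATF4 target median of -0.43 in siCT ethanol replicate 3 lay within the middle 50% of all genes.

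By the mean of both libraries the 4 largest upward shifts were those of HSP90B1, HYOU1, HSPA5 and PDIA3. HSPA5, the Hsp70 chaperone of the ER lumen (BiP), had 696, 688 and 689 CPM in siPRMT1 R5020 libraries and 682, 658 and 685 in siPRMT1 ethanol libraries, against 1195, 599.8 and 677 in siCT R5020 libraries and 577, 683 and 1596 in siCT ethanol libraries. HSP90B1, the ER member of the Hsp90 family, had 532, 596 and 542 CPM in siPRMT1 R5020 libraries and 580.5, 563 and 569 in siPRMT1 ethanol libraries, against 965, 459 and 523 in siCT R5020 libraries and 419, 625 and 1280 in siCT ethanol libraries. In both genes the pair stood above the other 10 libraries, which lay from 577 to 696 CPM for HSPA5 and from 419 to 625 CPM for HSP90B1. The siPRMT1 R5020 libraries of HSPA5 lay just above its siPRMT1 ethanol libraries, without overlap. HYOU1, a large Hsp70-like exchange factor of HSPA5, had 139.9, 156 and 161 CPM in siPRMT1 R5020 libraries and 138, 143 and 126 in siPRMT1 ethanol libraries, against 273, 144 and 138 in siCT R5020 libraries and 130.4, 105 and 296 in siCT ethanol libraries. PDIA3, the disulfide isomerase that works with calnexin and calreticulin, had 172, 183 and 183 CPM in siPRMT1 R5020 libraries and 179, 169 and 179 in siPRMT1 ethanol libraries, against 359.7, 193 and 199 in siCT R5020 libraries and 198, 208 and 475 in siCT ethanol libraries, again with the pair on top and with the siPRMT1 libraries below all siCT libraries. The shifts of HSP90B1, HYOU1, HSPA5 and PDIA3 were 0.98, 0.95, 0.91 and 0.88 in siCT R5020 replicate 1 and 1.32, 1.34, 1.35 and 1.23 in siCT ethanol replicate 3. Reads of PDIA3 are uncertain, since its processed copy PDIA3P held 98525 counts in all libraries beside 80875 for PDIA3.

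The remaining roles followed the chaperones or the ATF4 targets. The degradation genes HERPUD1, SEL1L, SYVN1 and EDEM1 were higher in the pair, by medians of 0.60 in siCT R5020 replicate 1 and 0.88 in siCT ethanol replicate 3. So were the 3 sensor genes and XBP1, with medians of 0.62 and 0.99. Among the transcription factors ATF4, CEBPB and CEBPG had shifts of -0.29, -0.20 and -0.59 in siCT R5020 replicate 1 and -0.35, -0.43 and -0.61 in siCT ethanol replicate 3. DDIT3 (CHOP), the factor linked to death under lasting stress, was higher, by 0.90 and 1.00. Its exons overlap those of MARS and MBD6 on the other strand, and no strand setting is given, so its count is uncertain. The ATF4 target VLDLR, a lipoprotein receptor gene, was higher by 0.45 and 0.87, against the rest of its group. CHAC1 shifted by -0.50 in siCT R5020 replicate 1 and by 0.12 in siCT ethanol replicate 3. Both phosphatase subunits were higher, PPP1R15A by 0.47 and 0.70 and PPP1R15B by 0.16 and 0.45.

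**Figure D3:**
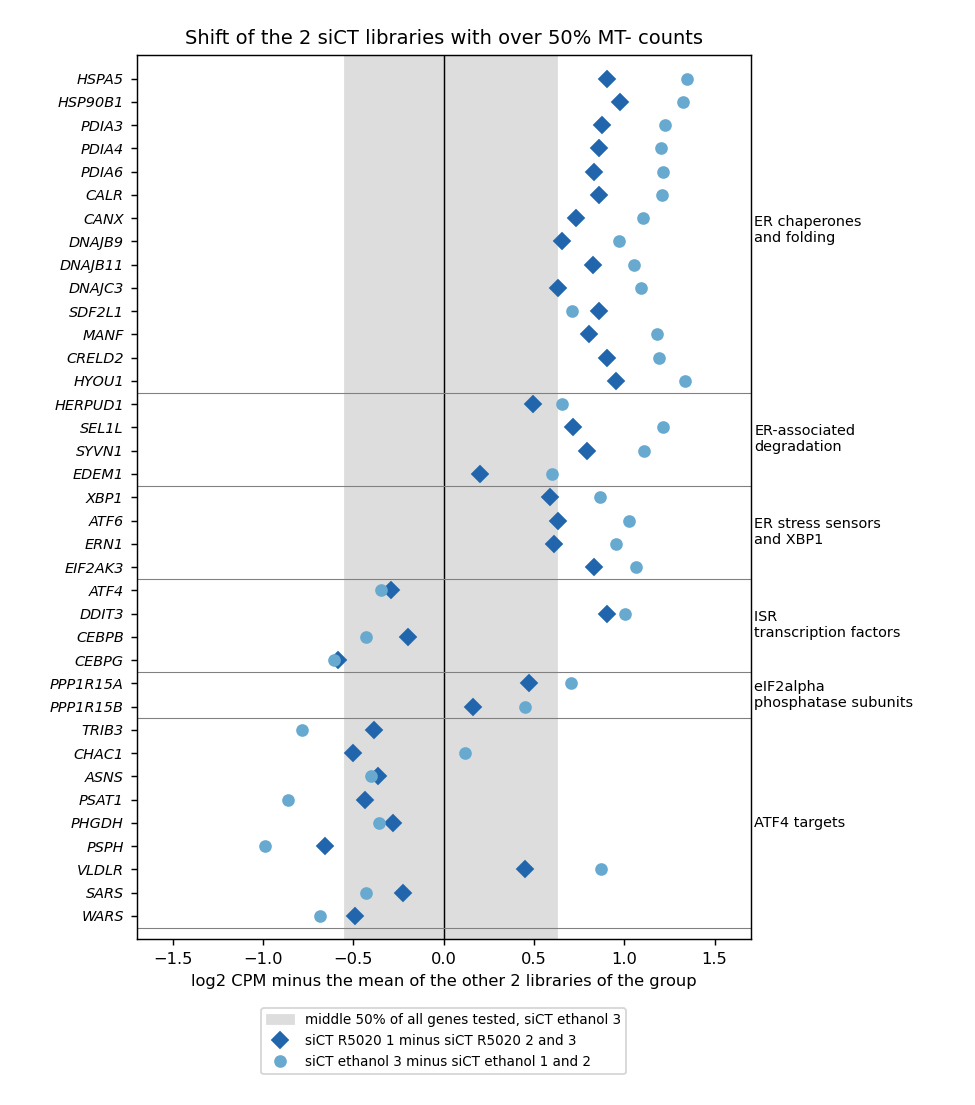
Shift of each of the 37 genes in the pair of siCT libraries with over 50% MT- counts, as log2 CPM minus the mean of the other 2 libraries of the same group; diamonds are siCT R5020 1 and circles siCT ethanol 3. The grey band is the middle 50% of all genes in siCT ethanol 3, from -0.54 to 0.63; all 14 chaperones lie at or right of 0.63, and most ATF4 targets lie left of 0.

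Genes of the same pathways that are not among the 37 were measured beside them. In 35 other ER folding and secretory genes the median shift was 0.60 in siCT R5020 replicate 1 and 0.95 in siCT ethanol replicate 3, with 3 of 35 lower in each. In 25 other genes of the integrated stress response it was -0.29 and -0.42, with 17 of 25 lower in each. Heat shock genes, which answer to misfolding outside the ER and include the mitochondrial chaperonins HSPD1 and HSPE1, were lower in 14 of 14, by medians of -0.37 and -0.59. The 10 of the 37 genes with an ER stress response element had medians of 0.86 and 1.20, while 20 other tested genes with the element had medians of 0.05 and -0.20, with 11 and 7 of the 20 above 0. Scaling by library totals alone, which counts the MT- reads, lowered both branches, to 0.34 and 0.39 for chaperones and -0.91 and -1.24 for ATF4 targets, beside -0.55 and -0.81 over all genes.

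PRMT1 depletion was compared with control siRNA in ethanol and in R5020. The serine synthesis gene PSAT1 and the tRNA synthetase genes WARS and SARS, all ATF4 targets, were higher in siPRMT1 cells in both media, along with the factor gene CEBPG. PPP1R15A, the inducible subunit that directs phosphatase to eIF2alpha, was lower in both. No chaperone gene was called in either medium. In ethanol 7 of 37 genes were called at an adjusted p under 0.05 (18.9%), 4 up and 3 down, against 32.8% of all tested genes (13.6% up and 19.2% down). In R5020 6 of 37 were called (16.2%), 4 up and 2 down, against 25.7% of all genes (11.5% up and 14.2% down). The share called was below that of all genes in each medium. With scaling by library totals alone the calls were 0 up and 1 down in R5020 (PPP1R15A) and 0 up and 2 down in ethanol (PPP1R15A and VLDLR), and over all genes 744 up and 1685 down in R5020, against 2046 up and 2513 down with the scaling used here. Adjusted p-values here and below come from the quasi-likelihood test of edgeR, adjusted by Benjamini-Hochberg over all 17727 genes. Log2 changes are given with standard errors (SE). The SE was derived from this test, as the absolute log2 change divided by the square root of the F statistic.

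PSAT1, the aminotransferase of serine synthesis, had 25.6, 33.6 and 25.5 CPM in siPRMT1 R5020 libraries and 28.3, 27.7 and 27.97 in siPRMT1 ethanol libraries, against 9.89, 12.2 and 14.7 in siCT R5020 libraries and 13.03, 17.4 and 8.26 in siCT ethanol libraries. All 6 siPRMT1 libraries lay above all 6 siCT libraries. It was 2.3-fold higher with siPRMT1 in R5020 (log2 1.20 ± 0.23, adjusted p = 0.00310) and 2.15-fold higher in ethanol (1.11 ± 0.23, adjusted p = 0.00381). Both calls held with each library left out in turn. The other enzymes of the same route were not called: PHGDH, which begins it, had log2 changes of 0.05 ± 0.15 in R5020 and 0.23 ± 0.15 in ethanol, and PSPH, which ends it, 0.17 ± 0.24 and 0.50 ± 0.24.

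The tRNA synthetase genes WARS and SARS, which charge tryptophan and serine, were higher in siPRMT1 cells as well. WARS had 365, 358 and 356 CPM in siPRMT1 R5020 libraries and 325, 338 and 329 in siPRMT1 ethanol libraries, against 178, 252 and 246 in siCT R5020 libraries and 233, 219.6 and 141 in siCT ethanol libraries. SARS had 138, 122 and 130.3 CPM in siPRMT1 R5020 libraries and 113, 113 and 107 in siPRMT1 ethanol libraries, against 77.9, 90.8 and 91.2 in siCT R5020 libraries and 89.97, 79.05 and 62.5 in siCT ethanol libraries. For both genes every siPRMT1 library was above every siCT library, and the pair held the lowest siCT values. WARS was higher by log2 0.67 ± 0.20 in R5020 (adjusted p = 0.0254) and 0.74 ± 0.20 in ethanol (adjusted p = 0.0135), and SARS by 0.59 ± 0.15 (adjusted p = 0.0141) and 0.52 ± 0.15 (adjusted p = 0.0197). In R5020 the WARS call was lost without siCT R5020 replicate 1 or any siPRMT1 R5020 library (log2 0.53 to 0.68), and the SARS call without siCT R5020 replicate 1 or siPRMT1 R5020 replicate 1 or 3 (0.52 to 0.59). In ethanol SARS was lost without any siPRMT1 ethanol library (0.51 to 0.55), while WARS held without each library.

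CEBPG, a bZIP factor that pairs with ATF4, had 65.7, 78.1 and 65.6 CPM in siPRMT1 R5020 libraries and 41.4, 40.05 and 42.5 in siPRMT1 ethanol libraries, against 33.1, 47.5 and 51.9 in siCT R5020 libraries and 21.04, 29.6 and 16.4 in siCT ethanol libraries. Within each medium the siPRMT1 libraries lay above the siCT libraries with no overlap. It was higher by log2 0.66 ± 0.21 in R5020 (adjusted p = 0.0350) and 0.88 ± 0.21 in ethanol (adjusted p = 0.00777). The call in ethanol held without each library, and that in R5020 was lost without siCT R5020 replicate 1 or 2 or any siPRMT1 library (0.49 to 0.71).

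ATF4 itself had 176, 190.2 and 202 CPM in siPRMT1 R5020 libraries and 161, 157 and 149.9 in siPRMT1 ethanol libraries, against 184, 231 and 219.7 in siCT R5020 libraries and 224, 163 and 150.2 in siCT ethanol libraries. In R5020 1 siCT library lay within the siPRMT1 range and 2 above it, and in ethanol the groups overlapped too, with log2 changes of -0.16 ± 0.17 and -0.20 ± 0.17 that were not called. DDIT3 had 41.5, 39.98 and 39.7 CPM in siPRMT1 R5020 libraries and 60.04, 57.9 and 55.8 in siPRMT1 ethanol libraries, against 77.7, 40.7 and 42.3 in siCT R5020 libraries and 57.8, 46.7 and 104 in siCT ethanol libraries. Its groups overlapped in both media, and it was not called (log2 -0.41 ± 0.28 in R5020 and -0.26 ± 0.28 in ethanol). TRIB3, a pseudokinase that restrains the ATF4 response, had 109, 103 and 109 CPM in siPRMT1 R5020 libraries and 76.6, 78.2 and 74.8 in siPRMT1 ethanol libraries, against 82.8, 111 and 106 in siCT R5020 libraries and 113, 82.7 and 56.05 in siCT ethanol libraries. It overlapped between siPRMT1 and siCT in both media and was not called (log2 0.10 ± 0.21 and -0.13 ± 0.21).

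PPP1R15A had 11.5, 12.2 and 13.96 CPM in siPRMT1 R5020 libraries and 14.2, 12.8 and 12.5 in siPRMT1 ethanol libraries, against 25.96, 20.4 and 17.1 in siCT R5020 libraries and 25.2, 17.1 and 33.8 in siCT ethanol libraries. All 6 siPRMT1 libraries were below all 6 siCT libraries. It was 1.68-fold lower with siPRMT1 in R5020 (log2 -0.75 ± 0.22, adjusted p = 0.0264) and 1.92-fold lower in ethanol (-0.94 ± 0.22, adjusted p = 0.00740). Without siCT ethanol replicate 3 the ethanol change was -0.62 and still called, and the R5020 call was lost without siCT R5020 replicate 1 or 2 or any siPRMT1 R5020 library (-0.84 to -0.58). PPP1R15B, the constitutive subunit, had log2 changes of 0.37 ± 0.16 and 0.21 ± 0.16 that were not called.

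VLDLR, SEL1L and CHAC1 were each called lower in siPRMT1 cells in a lone medium. VLDLR had 12.02, 11.1 and 11.3 CPM in siPRMT1 R5020 libraries and 4.04, 3.88 and 3.94 in siPRMT1 ethanol libraries, against 14.7, 9.90 and 11.6 in siCT R5020 libraries and 5.89, 5.49 and 10.4 in siCT ethanol libraries. In ethanol the siPRMT1 libraries lay below the siCT libraries, and in R5020 they fell among them. Its log2 change was -0.86 ± 0.23 in ethanol (adjusted p = 0.0135), or -0.46 and not called without siCT ethanol replicate 3, and -0.07 ± 0.22 in R5020 (adjusted p = 0.847). SEL1L, the adaptor of the degradation ligase SYVN1, had 209, 244 and 213 CPM in siPRMT1 R5020 libraries and 256, 264 and 266 in siPRMT1 ethanol libraries, against 461, 272 and 291 in siCT R5020 libraries and 285, 396 and 778 in siCT ethanol libraries. Its siPRMT1 libraries were below the siCT libraries in each medium, with siCT ethanol replicate 3 far above the others. SEL1L changed by log2 -0.89 ± 0.31 in ethanol (adjusted p = 0.0415), and the call was lost without siCT ethanol replicate 3 (-0.31) or without any 1 of the 6 siPRMT1 libraries. In R5020 its change of -0.62 ± 0.31 was not called.

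CHAC1, which degrades glutathione, had 6.33, 5.90 and 5.54 CPM in siPRMT1 R5020 libraries and 3.60, 3.70 and 2.72 in siPRMT1 ethanol libraries, against 7.55, 12.2 and 9.43 in siCT R5020 libraries and 5.45, 3.04 and 4.43 in siCT ethanol libraries. In R5020 each siPRMT1 library was below each siCT library, and in ethanol they overlapped. Its log2 change was -0.72 ± 0.23 in R5020 (adjusted p = 0.0349), a call lost without siCT R5020 replicate 2 or 3, siPRMT1 ethanol replicate 1 or any siPRMT1 R5020 library (-0.76 to -0.52), and its ethanol change of -0.37 ± 0.24 was not called. Whether the effect of siPRMT1 differed between the media is what the interaction below tests. The ER sensors and XBP1 were not called in either medium by edgeR (0 of 4 each, and 0 of 4 at an unadjusted p under 0.05), nor by DESeq2. The weighted limma fit called 3 of the 4 in R5020, all up, and 0 in ethanol. In R5020 it called 9866 of all 17727 genes, 4844 up and 5022 down.

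**Figure D4:**
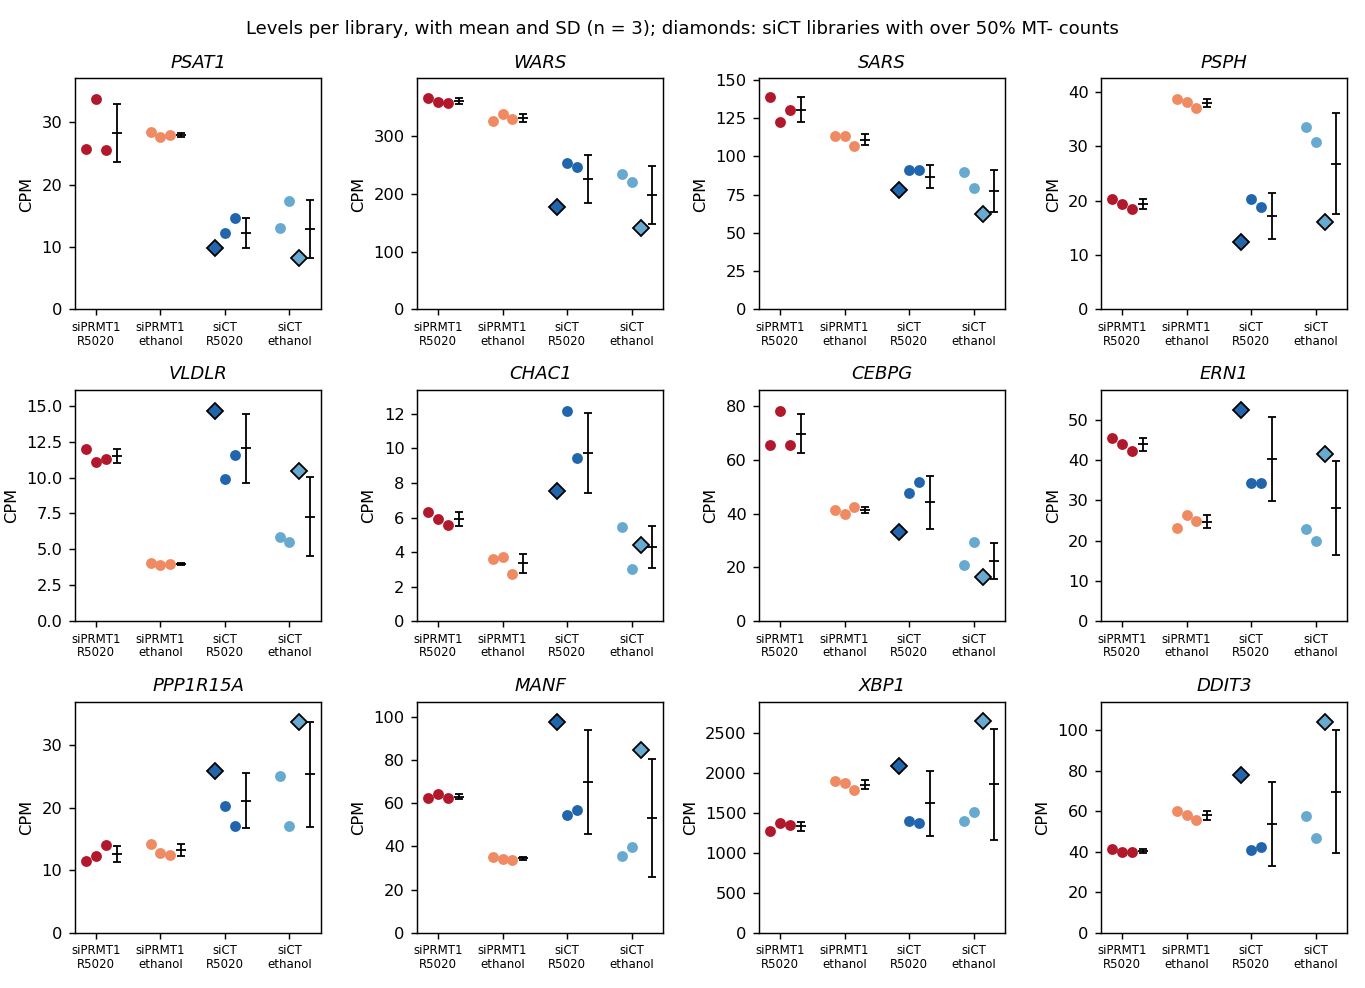
CPM of 12 of the genes in each library, with the group mean and SD (n = 3) beside the points; diamonds are the siCT libraries with over 50% MT- counts. The siPRMT1 points of PSAT1, WARS and SARS lie above all siCT points and those of PPP1R15A below them, while VLDLR, CEBPG, CHAC1 and ERN1 are higher with R5020 than with ethanol in siPRMT1 cells.

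Chaperone fold changes between siPRMT1 and siCT depended on the pair. With all 12 libraries the median log2 change of the 14 chaperones was -0.21 in R5020 and -0.43 in ethanol, beside -0.03 and -0.07 over all genes, and that of the 9 ATF4 targets was 0.17 and 0.23. No chaperone passed the test by edgeR, with 1 of 14 in R5020 and 3 of 14 in ethanol at an unadjusted p under 0.05. Of all 17727 genes 6968 in R5020 and 7852 in ethanol had such a p. In ethanol DESeq2 called PDIA4 lower, with 0 calls in R5020, and limma with library weights called 1 up and 1 down in ethanol and 4 up and 1 down in R5020. That limma fit called 9866 of all genes in R5020. Without the pair the chaperone medians were 0.16 in R5020 and 0.08 in ethanol, and the ATF4 target medians 0.11 and 0.13. The chaperone median thus changed sign, and the ATF4 target median did not. The degradation genes had medians of -0.20 in R5020 and -0.23 in ethanol with all libraries, and 0.06 and 0.14 without the pair, so their sign changed too. Without the pair 11 of the 37 genes had the other sign in R5020 and 10 in ethanol, HSPA5, HSP90B1, CANX and HYOU1 in both. With library totals alone the chaperone medians were -0.10 and -0.09 and those of the ATF4 targets 0.17 and 0.38, beside 0.01 and 0.11 over all genes.

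More of the 37 genes were called without the pair, as were more genes in all. In ethanol 20 of 37 were called, 14 up and 6 down, against 44.5% of 17974 genes (20.2% up and 24.3% down). In R5020 14 of 37 were called, 12 up and 2 down, against 38.9% (19.3% up and 19.6% down). All 7 and all 6 genes called with 12 libraries were among them, with the same direction. In R5020 PSAT1 changed by log2 1.08 ± 0.16, WARS by 0.54 ± 0.07, CEBPG by 0.50 ± 0.14 and PPP1R15A by -0.57 ± 0.16 in this fit, and in ethanol by 0.89 ± 0.16, 0.56 ± 0.07, 0.72 ± 0.14 and -0.67 ± 0.16. Those added in ethanol included the sensors EIF2AK3 (log2 0.53 ± 0.14) and ATF6 (0.30 ± 0.08), XBP1 (0.36 ± 0.07) and the J-domain co-chaperones DNAJB9 (0.66 ± 0.22), DNAJC3 (0.51 ± 0.12) and DNAJB11 (0.28 ± 0.09), all higher with siPRMT1. In R5020 the sensors EIF2AK3 (0.65 ± 0.14), ATF6 (0.33 ± 0.08) and ERN1 (0.37 ± 0.09) were added as higher. So were DNAJB9 (0.91 ± 0.22), DNAJC3 (0.72 ± 0.12) and DNAJB11 (0.35 ± 0.09). EDEM1 was added as higher in both media, by 0.26 ± 0.08 in R5020 and 0.36 ± 0.08 in ethanol. PPP1R15B was added as higher in both media, by 0.44 ± 0.08 in R5020 and 0.38 ± 0.08 in ethanol. In ethanol PDIA3 (-0.20 ± 0.07), PDIA4 (-0.33 ± 0.11) and TRIB3 (-0.34 ± 0.11) were added as lower. In this fit siCT has 2 libraries per medium, and the spread is estimated mostly from the siPRMT1 libraries. EIF2AK3 had 39.2, 43.8 and 41.5 CPM in siPRMT1 R5020 libraries and 34.5, 34.5 and 34.7 in siPRMT1 ethanol libraries, against 47.1, 24.04 and 29.2 in siCT R5020 libraries and 20.03, 28.1 and 49.7 in siCT ethanol libraries, and siPRMT1 libraries lay above the siCT libraries outside the pair and below those of the pair. ATF6 had 147, 142 and 139 CPM in siPRMT1 R5020 libraries and 132, 128 and 128 in siPRMT1 ethanol libraries, against 177, 114 and 115 in siCT R5020 libraries and 99.6, 113 and 216 in siCT ethanol libraries, with the same order.

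R5020 was compared with ethanol in siPRMT1 cells and in siCT cells. VLDLR, CEBPG and CHAC1 were higher with R5020 under both siRNAs, and in siPRMT1 cells ERN1 was higher and PSPH lower as well. In siPRMT1 cells 5 of 37 genes were called (13.5%), 4 up and 1 down, against 15.4% of all genes (9.3% up and 6.08% down). In siCT cells 3 of 37 were called (8.11%), all up, against 13% of all genes (7.59% up and 5.43% down). The called share was thus close to or below that of all genes. The median of the 14 chaperones was 0.11 in siPRMT1 cells and -0.10 in siCT cells and that of the ATF4 targets 0.12 and 0.17, beside -0.00 and -0.04 over all genes. Without the pair the chaperone medians were 0.10 in siPRMT1 cells and 0.05 in siCT cells, so the sign in siCT cells turned. With library totals alone the siPRMT1 medians were -0.06 and -0.05, beside -0.18 over all genes. The calls in siPRMT1 cells were then 3 up (VLDLR, ERN1 and MANF) and 2 down (XBP1 and DDIT3) among the 37, without CEBPG, CHAC1 and PSPH, and 897 up and 1167 down over all genes, against 1648 up and 1077 down.

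VLDLR was 2.9-fold higher with R5020 in siPRMT1 cells (log2 1.54 ± 0.23, adjusted p = 0.000367), where the groups were far apart and the call held without each library. In siCT cells it was 1.67-fold higher (0.74 ± 0.23, adjusted p = 0.0454), although siCT ethanol replicate 3 lay among the R5020 libraries. That call held without siCT ethanol replicate 3 (log2 1.11) or siCT R5020 replicate 2 and was lost without any 1 of the other 10 libraries (0.58 to 0.78). CHAC1 was 1.77-fold higher in siPRMT1 cells (0.83 ± 0.23, adjusted p = 0.0285) and 2.26-fold higher in siCT cells (1.18 ± 0.23, adjusted p = 0.00363), with no overlap between R5020 and ethanol. CEBPG rose by log2 0.76 ± 0.21 in siPRMT1 cells (adjusted p = 0.0259) and 0.98 ± 0.21 in siCT cells (adjusted p = 0.00678), again without overlap. The CHAC1 and CEBPG calls in siCT cells held without each library, and those in siPRMT1 cells were lost without any 1 of the 6 siPRMT1 libraries (0.70 to 0.91 for CHAC1 and 0.68 to 0.80 for CEBPG). With library totals alone 0 of the 4 integrated stress response factors were called in siCT cells, so the CEBPG call there was lost. Of the 4 genes of ER stress sensing 1 was then called up.

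PSPH, the phosphatase that completes serine synthesis, had 20.3, 19.4 and 18.5 CPM in siPRMT1 R5020 libraries and 38.7, 38.05 and 37.1 in siPRMT1 ethanol libraries, against 12.4, 20.4 and 18.7 in siCT R5020 libraries and 33.5, 30.8 and 16.1 in siCT ethanol libraries. With siPRMT1 the R5020 libraries were all below the ethanol libraries, and with siCT the ethanol library of the pair lay among the R5020 libraries. The log2 change of PSPH was -0.97 ± 0.24 in siPRMT1 cells (adjusted p = 0.0131), a call lost without siPRMT1 R5020 replicate 2 or 3 (-0.96 and -0.93), and its change of -0.65 ± 0.24 in siCT cells was not called. ERN1 had 45.5, 44.1 and 42.3 CPM in siPRMT1 R5020 libraries and 23.1, 26.3 and 24.8 in siPRMT1 ethanol libraries, against 52.4, 34.3 and 34.4 in siCT R5020 libraries and 22.9, 20 and 41.6 in siCT ethanol libraries. R5020 libraries were above ethanol libraries in siPRMT1 cells, and in siCT cells they were so outside the pair. ERN1 rose by 0.83 ± 0.24 in siPRMT1 cells (adjusted p = 0.0346), a call lost without any 1 of the 6 siPRMT1 libraries (0.79 to 0.88), and changed by 0.52 ± 0.24 in siCT cells (adjusted p = 0.200).

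XBP1 had 1266, 1372 and 1343 CPM in siPRMT1 R5020 libraries and 1897, 1866 and 1784 in siPRMT1 ethanol libraries, against 2078, 1389 and 1373 in siCT R5020 libraries and 1400, 1512 and 2649 in siCT ethanol libraries. With siPRMT1 all R5020 libraries lay below all ethanol libraries (log2 -0.48 ± 0.26), which was not called with 12 libraries, and with siCT they overlapped (-0.20 ± 0.26). Among the chaperones MANF, a small secreted protein of the ER, had 62.4, 64.4 and 62.4 CPM in siPRMT1 R5020 libraries and 35.3, 34.3 and 33.6 in siPRMT1 ethanol libraries, against 97.6, 54.6 and 57.03 in siCT R5020 libraries and 35.3, 39.5 and 84.8 in siCT ethanol libraries, and was chosen for mention after its values were seen. Its R5020 libraries were above its ethanol libraries in siPRMT1 cells, by log2 0.87 ± 0.30 (adjusted p = 0.0658). In siCT cells they were so outside the pair. The siCT change was 0.39 ± 0.29 with all 12 libraries and 0.57 ± 0.09 without the pair. No chaperone was called by edgeR under either siRNA, with 2 of 14 in siPRMT1 cells and 0 of 14 in siCT cells at an unadjusted p under 0.05. Of all 17727 genes 4489 in siPRMT1 cells and 4487 in siCT cells had such a p. This fit shares 1 estimate of the spread, so SEs in siPRMT1 cells include spread from siCT libraries. The biological coefficient of variation was 0.0753 and 0.0464 in siPRMT1 R5020 and ethanol, against 0.212 and 0.325 in siCT. Fits of the compared groups alone called 20 of the 37 genes in siPRMT1 cells, against 5. In siCT cells they called 0, against 3. Over all genes those fits called 7813 in siPRMT1 cells and 898 in siCT cells. MANF and DNAJC3 were called under both siRNAs without the pair. In siPRMT1 cells DESeq2 called MANF and limma with library weights called 5 chaperones, all up, while in siCT cells neither called any. The limma fit called 8179 of all genes in siPRMT1 cells.

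Without the pair 12 of 37 genes were called for R5020 in siPRMT1 cells, 9 up and 3 down, against 29.1% of all genes (15.8% up and 13.3% down). In siCT cells it was 9 of 37, 7 up and 2 down, against 19.9% (10.9% up and 8.95% down). All 5 and all 3 earlier calls were among them. MANF, DNAJC3, SYVN1 and DDIT3 were added under both siRNAs. MANF changed by log2 0.87 ± 0.08 in siPRMT1 cells and 0.57 ± 0.09 in siCT cells, DNAJC3 by 0.63 ± 0.11 and 0.43 ± 0.13, the ligase gene SYVN1 by 0.66 ± 0.10 and 0.47 ± 0.12, and DDIT3 by -0.53 ± 0.09 and -0.34 ± 0.11. XBP1 (-0.49 ± 0.06), TRIB3 (0.47 ± 0.10) and SARS (0.23 ± 0.08) were added in siPRMT1 cells, and PSPH (-0.72 ± 0.10) and ERN1 (0.67 ± 0.10) in siCT cells. The count of SYVN1 is uncertain, since exons of FAU and MRPL49 overlap it.

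**Figure D5:**
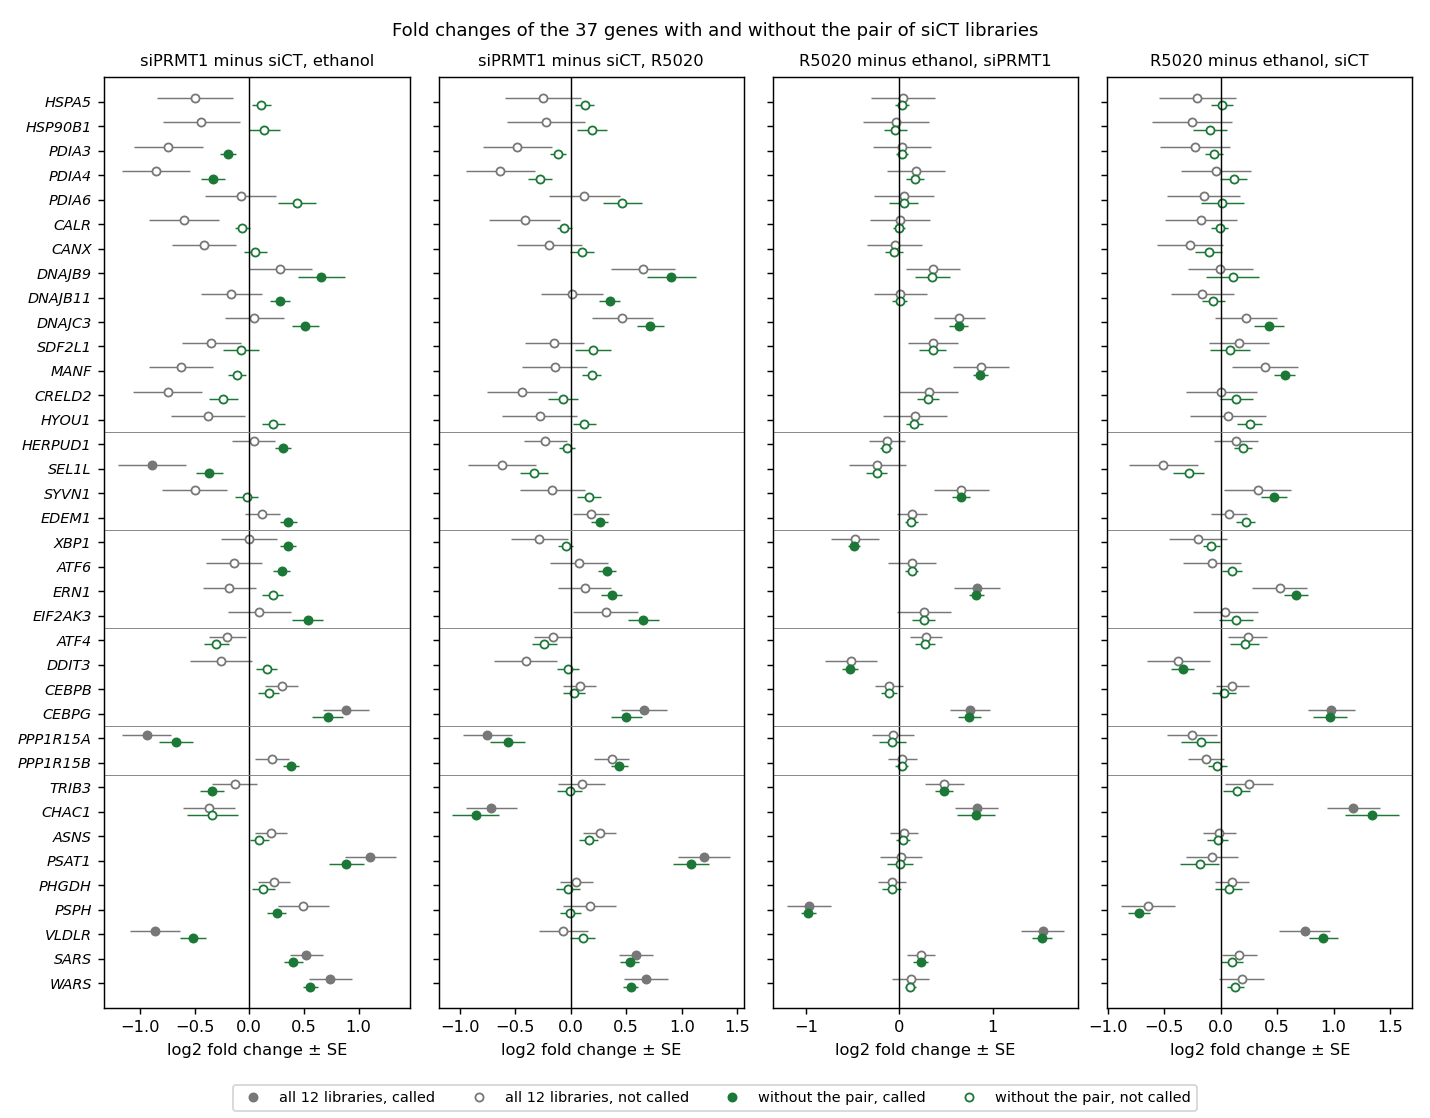
Log2 fold change with SE of each of the 37 genes in 4 comparisons (panels), with all 12 libraries (grey) and without the pair of siCT libraries (green); filled points have an adjusted p under 0.05 by edgeR. Chaperone points in the siPRMT1 minus siCT panels move to the right without the pair, while the R5020 minus ethanol points in siPRMT1 cells stay in place with smaller errors.

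The question of whether the progestin response differs after depletion was tested as an interaction, which subtracts the R5020 effect under siCT from that under siPRMT1. Of the 37 genes 0 were called by edgeR, and 14 of all 17727 genes were (0.079%, with 0.0451% up and 0.0338% down). DESeq2 and limma with library weights also called 0 of the 37. At an unadjusted p under 0.05 stood 1 of the 37, VLDLR, whose R5020 effect was larger in siPRMT1 cells by log2 0.79 ± 0.32 (unadjusted p = 0.0270), and 720 of all genes. The median interaction was 0.22 for the chaperones and 0.06 for the ATF4 targets, beside 0.04 over all genes, and with library totals alone -0.00, -0.07 and -0.10. In the fit that leaves out the pair it was 0.06 for the chaperones and 0.07 for the ATF4 targets. With SEs of 0.37 to 0.50 for the chaperones over 12 libraries, differences of that size were not detectable. The 4 comparisons share libraries, so their counts are not independent of each other.

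Genes of the same pathways outside the 37 were read from the same fits. Of 16 other cytosolic tRNA synthetase genes 3 were called with siPRMT1 in R5020, all up, against 25.7% of all genes, and 7 in ethanol, 6 up and 1 down, against 32.8%. Library totals alone left 0 of 16 in R5020 and 2 in ethanol, and without the pair 8 were up and 0 down in R5020 and 7 up and 1 down in ethanol. IARS, which charges isoleucine, had 177, 201 and 192 CPM in siPRMT1 R5020 libraries and 200.3, 204 and 209 in siPRMT1 ethanol libraries, against 103, 119 and 125 in siCT R5020 libraries and 108, 121 and 90.2 in siCT ethanol libraries, with all siPRMT1 libraries above all siCT libraries. It was higher by log2 0.72 ± 0.15 in R5020 and 0.94 ± 0.15 in ethanol, and EPRS by 0.58 ± 0.17 and 0.70 ± 0.17. For R5020 against ethanol 0 of these 16 were called by edgeR under either siRNA, with 2 in siPRMT1 cells and 1 in siCT cells at an unadjusted p under 0.05, 0 by DESeq2, and 5 and 1 by limma with library weights. Of all 17727 genes 4489 and 4487 had such an unadjusted p, and limma called 8179 in siPRMT1 cells.

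Of 25 other genes of the integrated stress response 6 were called with siPRMT1 in R5020, 3 up and 3 down, and 8 in ethanol, 5 up and 3 down, close to the shares over all genes of 25.7% and 32.8%. Library totals alone gave 1 up and 2 down in each medium. ATF5, a factor related to ATF4, had 5.30, 4.48 and 5.01 CPM in siPRMT1 R5020 libraries and 6.28, 6.28 and 5.90 in siPRMT1 ethanol libraries, against 9.77, 13.9 and 14.2 in siCT R5020 libraries and 19.9, 13.9 and 10.8 in siCT ethanol libraries, so the siPRMT1 libraries were below all siCT libraries. Its log2 change was -1.36 ± 0.22 in R5020 and -1.28 ± 0.22 in ethanol. Genes of the exchange factor eIF2B, which phosphorylated eIF2alpha inhibits, went in different directions in ethanol, EIF2B5 by 0.60 ± 0.12 and EIF2B2 by -0.85 ± 0.20. For R5020 against ethanol 4 of the 25 were called in siPRMT1 cells, 3 up and 1 down, and 4 in siCT cells, 1 up and 3 down, against 15.4% and 13% of all genes. The stress regulator NUPR1 rose with R5020 under both siRNAs, by 1.09 ± 0.29 in siPRMT1 cells and 1.04 ± 0.29 in siCT cells.

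Of 35 other ER folding and secretory genes 1 was called with siPRMT1 in R5020 and 7 in ethanol, all lower, against 25.7% and 32.8% of all genes. The direction depended on the pair, since without it 36 such genes were tested and 11 were up and 6 down in R5020 and 11 up and 7 down in ethanol. Library totals alone gave 1 up and 1 down in R5020 and 3 up and 2 down in ethanol. For R5020 against ethanol 2 of the 35 were called in siPRMT1 cells and 1 in siCT cells, all up, against 15.4% and 13% of all genes. CREB3L2, an ER membrane transcription factor related to ATF6, had 159, 147 and 156 CPM in siPRMT1 R5020 libraries and 36.7, 40.5 and 39.9 in siPRMT1 ethanol libraries, against 213, 209 and 192 in siCT R5020 libraries and 67.8, 52.2 and 85.3 in siCT ethanol libraries. It was well above ethanol in every R5020 library, 3.95-fold in siPRMT1 cells (log2 1.98 ± 0.17, adjusted p = 3.86e-06) and 3.00-fold in siCT cells (1.58 ± 0.17, adjusted p = 2.69e-05). With siPRMT1 in ethanol its log2 change was -0.81 ± 0.17, and that of PDIA5, a disulfide isomerase, -1.38 ± 0.32. Heat shock genes were called with siPRMT1 in 3 of 14 in R5020, all up, against 25.7% of all genes, and 4 of 14 in ethanol, 3 up and 1 down, against 32.8%, the mitochondrial HSPD1 among those up in both. They were called with R5020 in 3 of 14 in siPRMT1 cells and 5 of 14 in siCT cells, all up, against 15.4% and 13% of all genes, and with library totals alone in 2 and 0 of 14. Among them were DNAJB1, with log2 changes of 1.50 ± 0.21 in siPRMT1 cells and 1.18 ± 0.21 in siCT cells, and BAG3, with 1.50 ± 0.22 in siPRMT1 cells and 0.99 ± 0.22 in siCT cells.

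Levels per exon length, averaged over the 12 libraries with GENCODE exon lengths on GRCh38, spread widely among the 37 genes. XBP1 stood first at 549 CPM per kb, followed by CALR at 369, HSPA5 at 201, HSP90B1 at 135.8 and CANX at 107.7. ATF4 mRNA stood at 73.2 CPM per kb, above all of its listed targets, of which WARS was the highest at 43.8. VLDLR was the lowest at 0.930 CPM per kb, with CRELD2 at 1.96 and PHGDH at 1.97 above it. Exons of other genes overlap those of several of the 37, among them VLDLR-AS1 on the other strand of VLDLR, WDR25 on that of WARS, ALG12 on that of CRELD2, TBCCD1 on that of DNAJB11, ATP6V1C2 on that of PDIA6 and THAP5 on that of DNAJB9, so these levels are uncertain. The 37 genes together took 1.04% to 2.09% of the counts outside MT- genes, with the highest shares in the pair.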

How the data were processed

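RNA from T47D cells was extracted with TRIzol and made into libraries with the Lexogen SENSE mRNA-Seq kit, per the labels' protocols. The deposited tables hold raw counts per gene symbol, 1 table per library. Bowtie2 2.3.2.2, HTSeq 0.9.1, DESeq2 and hg19 are named in the submitters' processing notes, without their roles; the sources used here give no annotation or strand setting. Rows that name no gene were left out. Counts were filtered with filterByExpr, scaled with TMM and fitted with edgeR 4.0.16 (R 4.3.3) by group over all 12 libraries, with quasi-likelihood tests, Benjamini-Hochberg adjustment over all tested genes and a threshold of 0.05; the groups share 1 estimate of the spread. CPM values use TMM library sizes, except the marker sums, which use library totals, and log2 CPM a prior count of 2. Group values are means ± SD. Alternatives used DESeq2 1.42.0 size factors and limma 3.58.1 weights, other filters, left-out libraries and replicate blocks. The fit was tested on simulated data in which all groups had the same spread and no library stood apart, unlike here. Whether replicates came from separate cultures is known only from the word biological in the labels. The 37 genes, roles and other lists were chosen with earlier results of these data known. Values per library are given for genes called in any comparison, the central factors, the sensors, HSPA5 and the 4 largest shifts of the pair each way, and for up to 4 called genes of each other list. The authors' own comparisons were not used.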

Additional observations from a re-analysis of the deposited data

How the results depend on the processing

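Counts of called genes depended on scaling, tool and the pair of siCT libraries. For siPRMT1 against siCT in R5020, all genes called numbered 2429 with library totals, 9866 with limma weights and 6992 without the pair, and the 37 gave 1, 18 and 14; in ethanol library totals gave 3021 genes and 2 of the 37, the compared groups alone 3324 and 3, and the 37 gave 20 without the pair, with chaperones minus ATF4 targets at -0.0476. For R5020 in siPRMT1 cells limma gave 8179 genes and 18 of the 37, the compared groups alone 7813 and 20, and leaving out the pair 5226 and 12; in siCT cells the compared groups alone gave 898 and 0, and leaving out the pair 3568 and 9. The interaction called 3 genes with library totals, 88 with DESeq2, 65 with limma, 29 without a filter and 140 without the pair. Scaling by library totals put the pair's shift at 0.34 and 0.39 for chaperones and -0.91 and -1.24 for ATF4 targets. Without the pair 10 of the 37 changed sign for siPRMT1 in ethanol, of which DNAJB11, XBP1 and ATF6 were then called, at 0.28, 0.36 and 0.30. The causes were not tested.

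With 1 library left out at a time, siPRMT1 against siCT gave 2332 to 6768 genes, 1 to 10 of the 37 and a chaperone minus ATF4 target median of -0.70 to 0.05 in R5020, and 3487 to 7827, 5 to 11 and -1.08 to -0.0464 in ethanol. R5020 gave 1831 to 3820, 1 to 10 and -0.04 to 0.04 in siPRMT1 cells, and 1550 to 3029, 2 to 8 and -0.67 to 0.39 in siCT cells. The interaction gave 0 to 32 genes, 0 of the 37 and -0.45 to 0.64. No pairing by replicate number was seen, as in no pair of groups did all 3 correlations of same-numbered deviations pass 0.1 (range -0.67 to 0.29). With 3 replicates and siCT libraries of different numbers standing apart, the check cannot exclude a shared batch. With the replicate number as a block, R5020 in siPRMT1 cells called 3 of the 37 and the interaction 0 genes; calls not made under the block were SEL1L for siPRMT1 in ethanol, CHAC1 in R5020, ERN1 and CHAC1 for R5020 in siPRMT1 cells and VLDLR in siCT cells. Counts of processed copies limit ATF4 (ATF4P4 held 9617 counts beside 70887), ASNS (1296 for ASNSP1 beside 9947) and PSAT1 (1391 for PSAT1P3 beside 8012).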
